A study of Sus scrofa with 6 samples.

Results

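The solute carriers described here are the transporter genes of kidney cortex outside the organic ion, mitochondrial and nucleoside families. The members were all array probes whose gene name begins with SLC and a digit, without the SLC22A, SLC25A, SLC28A, SLC29A and SLC47A families and without SLC2A1, SLC2A2, SLC5A1, SLC5A2 and SLC37A4. Of the 43603 probes on the array, 151 probes of 83 genes met this rule. For 124 probes of 65 genes the scanner software set the spot clearly over background in 3 or more of the 6 arrays, and these are the members measured. No gene was kept only through 1 of the groups, since each had at least 1 such array in both. By substrate, 12 of the 65 genes carry amino acids or creatine, 10 sodium or phosphate, 6 sugars or polyols, 15 metals and 22 other substrates. SLC12A4, a potassium chloride cotransporter, was placed in the sodium or phosphate class. The label of plasma membrane carriers held only in part: zinc exporters of the SLC30 family and nucleotide sugar carriers of the SLC35 family work largely in internal membranes, and SLC9A3R1 and SLC9A3R2 are scaffold proteins that bind carriers.

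Solute carriers are membrane proteins that move ions, nutrients and metabolites across cell and organelle membranes. In the proximal tubule, apical carriers take filtered phosphate, amino acids, peptides and sugars back from the tubular fluid, many of them driven by the sodium gradient across the cell membrane. Basolateral carriers then pass these solutes to the blood, and several amino acid carriers work only as pairs of a transporting light chain (SLC7) and a heavy chain (SLC3) that brings it to the membrane.

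The study measured total RNA of renal cortex from Large White pigs of 3 months on 1-colour Agilent arrays. The 3 control kidneys were taken out and sampled and frozen at once. The 3 ischemia kidneys were clamped, taken out and held clamped for 60 min at 37 °C, then flushed with cold University of Wisconsin preservation solution, stored at 4 °C for 24 h and sampled without being returned to an animal. Each kidney came from a different pig, and warm clamping, flush and cold storage were always combined, so their parts cannot be told apart.

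Each of the 3 slides held 1 control and 1 ischemia array: control 1 with ischemia 2 on slide 1, control 2 with ischemia 3 on slide 2, and control 3 with ischemia 1 on slide 3. All control arrays lay at position 4 and all ischemia arrays at position 3 of their slide, and these differences in place and group cannot be told apart. Between 52.6% and 61.4% of spots were well above background, both of the highest shares lying on slide 3, and correlations between arrays were 0.960 to 0.983. A level below is log2 of the probe's signal over the 75th percentile of its array, and a difference is ischemia minus control on that log2 scale. A gene is represented by its brightest probe, and levels of different probes are not set against each other.

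The array probes are 60 bases long, and the sequences of those behind the genes discussed most are printed to show what was measured. SLC7A9 had a pair of unlike probes, SLC38A3 had a pair with the same sequence under different names, and the SLC16A9 probe is the dimmer of its pair. The sequences come from the deposited scanner files, 5′ to 3′.
SLC7A9, brighter probe A_72_P088796: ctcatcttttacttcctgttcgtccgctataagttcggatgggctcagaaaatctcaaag
SLC7A9, dimmer probe A_72_P538288: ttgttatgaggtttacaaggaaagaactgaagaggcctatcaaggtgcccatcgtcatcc
SLC6A8, probe A_72_P338743: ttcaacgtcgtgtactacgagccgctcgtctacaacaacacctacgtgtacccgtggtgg
SLC5A11, probe A_72_P165286: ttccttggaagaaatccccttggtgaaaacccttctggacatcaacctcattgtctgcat
SLC16A9, probe A_72_P489199: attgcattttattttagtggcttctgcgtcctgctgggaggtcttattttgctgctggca
SLC35D1, probe A_72_P172981: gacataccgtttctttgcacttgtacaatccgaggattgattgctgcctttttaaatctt
SLC38A3, probes A_72_P485451 and A_72_P387033: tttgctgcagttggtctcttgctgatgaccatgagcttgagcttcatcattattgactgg

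No solute carrier gene passed the adjusted threshold between ischemia and control (0 of 65 at a limma adjusted p under 0.05, smallest adjusted p 0.743). Over all probes 0.004% were called, a single probe of 25017. At an unadjusted p under 0.05, 7 genes differed, 10.8% of the 65, against 6.3% of all probes. SLC34A1, SLC6A8, SLC5A11, SLC39A5 and SLC16A9 had lower means in ischemia (7.69% of genes, against 3.32% of all probes), and SLC27A2 and SLC35D1 had higher means (3.08%, against 2.98%). These counts depended on single arrays. The lower count was 1 without control 1, without control 2, without ischemia 1 or without ischemia 2, was 10 without control 3 and 4 without ischemia 3. The higher count was 0 without control 2 or ischemia 1, 1 without control 3 or ischemia 2, 3 without control 1 and 5 without ischemia 3.

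The standard errors of the 65 differences ran from 0.17 to 0.58 with a median of 0.28. With 3 kidneys a group, shifts well above their standard error could still miss the thresholds. SLC34A3, at -0.54 with an SE of 0.25, had a limma unadjusted p of 0.0646. SLC16A9, at -1.05 with an SE of 0.38, had an adjusted p of 0.743. The median difference over the genes was -0.11, beside -0.04 over all probes. The difference was below 0 for 41 genes, 63.1%, against 55.8% of all probes. With each array centred on its median, which moved the median of all probes to 0.11, 31 of the 65 genes were below 0. In the authors' deposited values, where the median of all probes was 0.14, 13 of the 46 brightest probes present were below 0. Relative to the median of all probes, the member median was at -0.07 in the main values and -0.07 with median centring. It was at -0.09 with quantile normalization and -0.03 in the deposited values. The median level of the members varied between kidneys of a group with an SD of 0.15, more than any of these offsets. The compared sets also differ in brightness. Array medians were 1.39 to 1.77 for the members, by their brightest probes, and -0.61 to -0.49 for all probes.

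**Figure D1:**
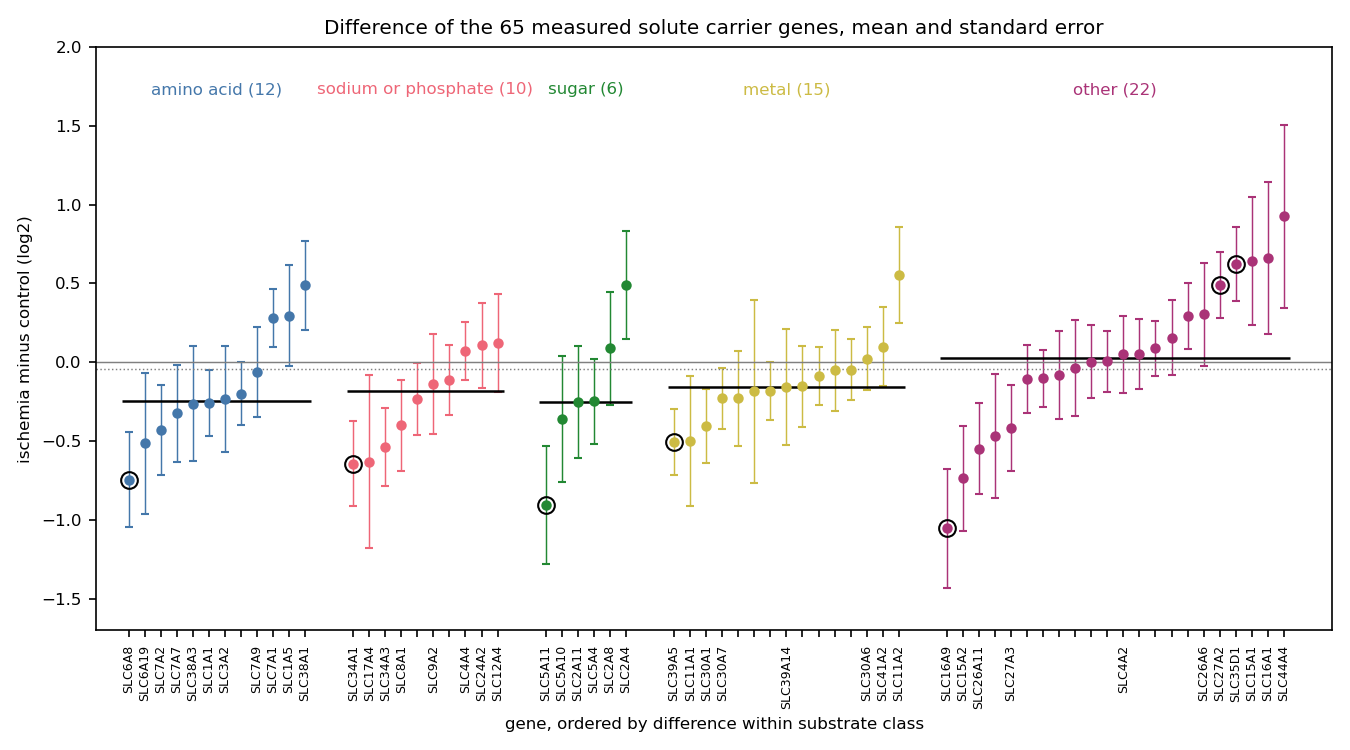
Difference between ischemia and control (log2, vertical axis) of the 65 measured genes, ordered within 5 substrate classes, with some of the genes labelled. Points are limma estimates, bars 1 standard error, black lines class medians, the dotted line the median of all probes, and rings the 7 genes at an unadjusted p under 0.05. The class medians of amino acid, sodium or phosphate, sugar and metal carriers lie between -0.25 and -0.16, and that of the other carriers at 0.03.

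Of the 10 sodium or phosphate carriers 7 were lower, against 4 in the deposited values and 5 after median centring. Below the median of all probes lay 7 in the main values, 8 in the deposited values and 7 after median centring. By their brightest probes all 3 measured phosphate carriers were lower on every slide. SLC34A1, the main sodium phosphate cotransporter of the proximal tubule brush border, measured 7.08, 6.86 and 6.19 in controls 1 to 3 and 6.02, 5.96 and 6.22 in ischemia 1 to 3. Control 3 lay at the height of the ischemia kidneys, so the groups overlapped. The difference was -0.64 (SE 0.27, n = 3 per group; limma unadjusted p = 0.0480, adjusted p = 0.786), a 1.56-fold lower mean. The ischemia kidneys were close together (SD 0.14), whereas the controls spread more widely (SD 0.46). A second, dim SLC34A1 probe, well above background on 1 control and 2 ischemia arrays, gave 0.35 with an SE of 0.47.

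SLC34A3, the other phosphate cotransporter of the brush border, measured 7.54, 7.19 and 6.79 in the controls and 6.46, 6.80 and 6.65 in ischemia. Control 3 again was the lowest control, a hair under ischemia 2. Its difference was -0.54 (SE 0.25, unadjusted p = 0.0646). SLC17A4, of the family named for sodium phosphate cotransport, was dim at -1.59, -3.06 and -1.89 in the controls and -2.29, -2.24 and -3.89 in ischemia, a difference of -0.63 (SE 0.55). With the slide as a block SLC34A1, SLC34A3 and SLC17A4 had an unadjusted limma p of 0.0417, 0.0386 and 0.0215, where 5.62% of all probes were lower at an unadjusted p under 0.05, and none passed adjustment (smallest adjusted p 0.445). By these probes all 3 were also below 0 under median centring, quantile normalization, normexp correction and the deposited values. A dimmer SLC34A3 probe, named only in its description, gave -0.14 (SE 0.34), and -0.13, -1.04 and 0.74 within slides 1 to 3. It was 0.01 with median centring, 0.01 with quantile normalization, -0.09 with normexp correction and 0.15 in the deposited values.

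None of the remaining genes of the sodium or phosphate class, which takes in SLC12A4, had an unadjusted p under 0.05, with or without the slide as a block. SLC9A3, the apical sodium proton exchanger of the proximal tubule, gave -0.23 (SE 0.23), and SLC9A2 gave -0.14 (SE 0.32), with the opposite sign under median centring (0.01) and in the authors' deposited table (0.10), where SLC9A3 was above 0 too. SLC8A1, a sodium calcium exchanger, gave -0.40 (SE 0.29) with controls at -0.69, -1.30 and -0.25 and ischemia at -1.12, -1.25 and -1.06. SLC4A4, the basolateral sodium bicarbonate cotransporter of the proximal tubule, held almost the same level in the controls (3.09, 3.11 and 3.06) and measured 3.20, 3.27 and 2.99 in ischemia, a difference of 0.07 (SE 0.18). SLC12A4, a potassium chloride cotransporter, gave 0.12 (SE 0.31; -0.12 without control 3) and SLC24A2, a potassium-dependent sodium calcium exchanger, 0.11 (SE 0.27), the latter with 2 arrays of each group well above background and of opposite sign with normexp correction (-0.15).

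SLC12A1, the sodium potassium chloride cotransporter of the thick ascending limb, had no probe under its own gene name. The 1 probe described as this gene was not well above background, with 0 control and 0 ischemia arrays. SLC34A2, SLC8A3, SLC24A4 and SLC12A5 also failed the background rule, with at most 2 control arrays and no ischemia array above background for any of them.

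**Figure D2:**
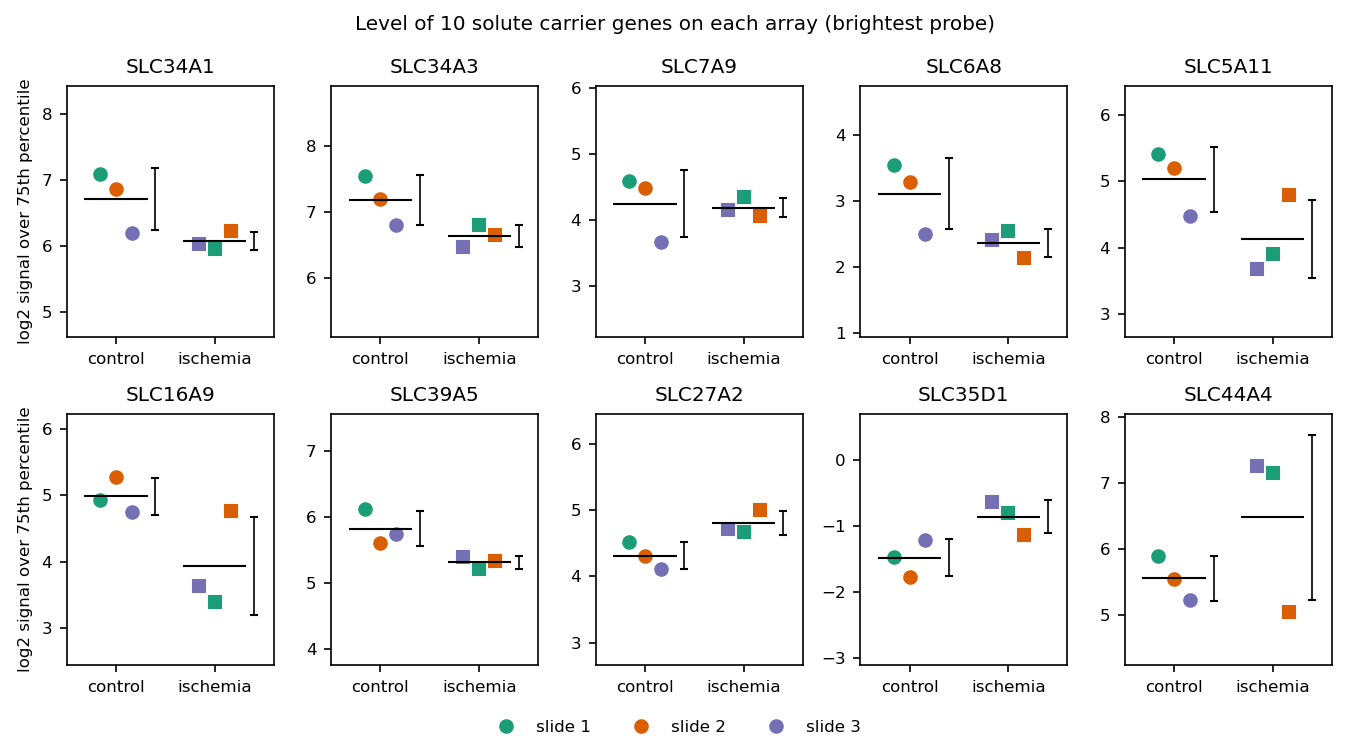
Level (log2 of signal over the array's 75th percentile) of 10 genes in 3 control kidneys (circles) and 3 ischemia kidneys (squares), coloured by slide; black lines are means, bars SDs, and each panel spans the same number of log2 units. Control 3 sits beside the ischemia kidneys for SLC34A1 and SLC6A8, and ischemia 3 stands apart from the other ischemia kidneys for SLC16A9, SLC5A11 and SLC44A4.

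Among amino acid carriers 9 of 12 genes were lower, with a median of -0.25, and 1 had an unadjusted p under 0.05. With median centring 8 of the 12 were below 0, and in the deposited values 4 of the 7 present, with a median near 0 (-0.0045). Below the median of all probes lay 9 in the main values, 9 with median centring and 5 of the 7 in the deposited values. SLC6A8, the creatine transporter, measured 3.54, 3.29 and 2.50 in the controls and 2.41, 2.55 and 2.14 in ischemia. Controls 1 and 2 stood above all other arrays, and control 3 fell among the ischemia kidneys. The difference was -0.74 (SE 0.30, unadjusted p = 0.0422, adjusted p = 0.774), and on slide 3, which pairs control 3 with ischemia 1, it was only -0.09.

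SLC7A9, the light chain that takes up cystine and dibasic amino acids with SLC3A1, measured 4.59, 4.49 and 3.67 in the controls and 4.16, 4.35 and 4.07 in ischemia. Its difference was -0.06 (SE 0.28), of opposite sign with median centring (0.09) and in the authors' deposited table (0.02). The dimmer SLC7A9 probe printed above gave 3.05, 2.77 and 2.13 in the controls and 2.28, 2.46 and 2.25 in ischemia, a difference of -0.32 (SE 0.27). Both probes placed control 3 lowest and controls 1 and 2 highest. SLC3A1, the heavy chain, measured 6.17, 5.95 and 5.79 against 5.69, 5.94 and 5.68, a difference of -0.20 (SE 0.20), and its 4 probes gave -0.47 to -0.17.

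SLC6A19, the apical carrier of neutral amino acids, ran from 4.28 in control 1 through 3.44 to 2.45 in control 3, while ischemia measured 2.55, 3.07 and 3.02. The control range thus covered all ischemia values, and the difference of -0.51 (SE 0.45) went from -1.21 on slide 1 to 0.10 on slide 3. SLC7A7, the basolateral light chain for dibasic amino acids, gave -0.32 (SE 0.31), and SLC3A2, its heavy chain, -0.23 (SE 0.33). SLC3A2 was tight in controls (3.70, 3.84 and 3.63) and split in ischemia, with 4.25 in ischemia 2 against 3.06 and 3.17. SLC7A2, a cationic amino acid transporter, gave -0.43 (SE 0.29), SLC1A1, the apical glutamate carrier, -0.26 (SE 0.21), and SLC38A3 -0.26 (SE 0.37). The 3 SLC38A3 probes are described in the same files as SLC38A5, a relative, so which gene they read is uncertain.

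SLC7A1, a cationic amino acid transporter, was a small shift with groups that did not overlap. It measured 1.49, 1.24 and 1.48 in the controls and 1.75, 1.71 and 1.61 in ischemia, a difference of 0.28 (SE 0.18, unadjusted p = 0.170). SLC1A5, a neutral amino acid exchanger, measured 6.80, 6.55 and 6.63 against 7.42, 7.19 and 6.26. Ischemia 1 and 2 were above all controls and ischemia 3 below all of them, and the difference was 0.30 (SE 0.32). SLC38A1, a sodium-coupled glutamine carrier, gave 0.49 (SE 0.28). Of the 11 carriers listed as linked to the amino acid starvation factor ATF4, 4 were measured, and 3 of these were higher and SLC3A2 lower, none at an unadjusted p under 0.05. SLC7A11, the cystine glutamate exchanger on that list, was above background on 1 ischemia array and no control array.

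Sugar and polyol carriers numbered 6, of which 4 were lower, as were 4 with median centring and 1 of the 4 present in the deposited values. The counts below the median of all probes were 4, 4 and 2 in the same order. SLC5A11, a sodium myo-inositol cotransporter, measured 5.42, 5.21 and 4.47 in the controls and 3.67, 3.91 and 4.80 in ischemia. Ischemia 1 and 2 were below all controls, and ischemia 3 was above control 3. The difference was -0.91 (SE 0.37, unadjusted p = 0.0443, adjusted p = 0.778). Within slides 1 to 3 it was -1.51, -0.41 and -0.80, and the limma unadjusted p with the slide as a block was 0.0140.

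SLC5A10, a sodium-coupled carrier of mannose and fructose, measured 5.21, 5.26 and 3.90 in the controls and 4.35, 4.79 and 4.15 in ischemia. Its difference of -0.36 (SE 0.40) changed sign on slide 3 (0.45). SLC2A4, the insulin-responsive glucose transporter, measured -1.25, -1.26 and -1.39 against -0.50, -0.33 and -1.60, with ischemia 1 and 2 above all controls and ischemia 3 below them (difference 0.49, SE 0.34). SLC2A8, a glucose transporter of internal membranes, lay between 2.07 and 2.19 in all controls, while ischemia 2 was above that range at 2.96, ischemia 1 just above it at 2.20 and ischemia 3 below all controls (difference 0.09, SE 0.36). SLC5A4 gave -0.25 (SE 0.27), with the opposite sign in the deposited values (0.03). SLC2A3, a neuronal-type glucose transporter on the hypoxia list, was above background on 2 control arrays and no ischemia array.

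The brightest probes of SLC2A11 and of the zinc carrier SLC39A14 moved together from array to array (Pearson r 0.987 over 6 arrays, a description over shared arrays). They share a run of 16 bases, ACTAGTATCCATGAGG, given in capitals in 30 bases of each probe because this run sets these probes apart from the other probes of their genes.
SLC39A14, probe A_72_P370828, bases 18 to 47: gaacctgACTAGTATCCATGAGGttgtgga
SLC2A11, probe A_72_P444315, bases 21 to 50: gaacccaACTAGTATCCATGAGGatgtggg
On both strands the run occurred in 7 of the 43603 probes (0.0161%), 6 as printed and 1 in reverse complement, and all 7 were kept. Over the other 6 of them the median correlation with the SLC39A14 probe was 0.987, and 4 of the 6 were above 0.9. SLC39A14 measured 5.28, 5.82 and 6.54 in the controls and 6.21, 5.47 and 5.50 in ischemia by this probe, and SLC2A11 measured 5.77, 6.34 and 6.97 against 6.58, 5.94 and 5.80. Both were highest in control 3 and ischemia 1, the arrays of slide 3, and lowest on slide 1 in control 1. The differences were -0.16 (SE 0.37) and -0.25 (SE 0.36), and both had the opposite sign in the deposited values (0.08 and 0.08). The other probe of SLC39A14, without the run, gave -0.22 (SE 0.30), and that of SLC2A11 gave -0.04 (SE 0.30). Which transcripts the probes with the run bind was not tested.

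**Figure D3:**
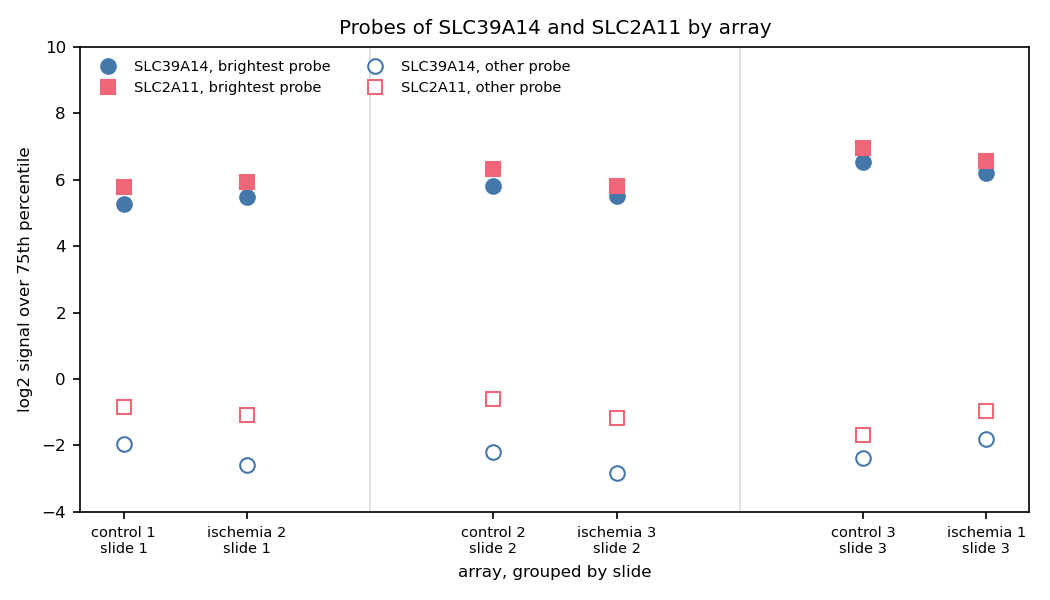
Level of both probes of SLC39A14 and SLC2A11 (log2 of signal over the array's 75th percentile) on the 6 arrays, paired by slide. The filled symbols, the probes that share 16 bases, rise from slide 1 to slide 3 together, from 5.28 to 6.54 and from 5.77 to 6.97 in the control arrays, and the open symbols do not follow them.

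Metal carriers were mostly slightly lower, 12 of 15 genes, with a median of -0.16. With median centring 9 of 15 were below 0, and in the deposited values 1 of the 12 present. Below the median of all probes lay 12 in the main values, 12 with median centring, 9 with normexp correction and 8 in the deposited values. The 12 zinc carriers ran from -0.51 to 0.02, and 11 were lower. That count was 8 with median centring, 10 with quantile normalization and 1 of the 10 present in the deposited values. Against the median of all probes, 11 zinc carriers lay below it in the main values, with median centring and with quantile normalization. With normexp correction 8 did, and in the deposited values 7 of the 10. SLC39A5, a basolateral zinc importer, measured 6.12, 5.60 and 5.75 in the controls and 5.40, 5.20 and 5.34 in ischemia. Every ischemia kidney was below every control, which held for 1.54% of the 65 genes and 5.03% of all probes in that direction. The difference was -0.51 (SE 0.21, unadjusted p = 0.0465, adjusted p = 0.780), or -0.13 in the deposited values. With the slide as a block the limma unadjusted p was 0.0651, over the threshold, and the second SLC39A5 probe gave -0.29.

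SLC30A1, the zinc exporter of the plasma membrane that is induced by zinc, measured 0.78, 0.79 and 0.32 against 0.02, 0.51 and 0.15, a difference of -0.40 (SE 0.23), and its second probe gave -0.45. It was lower on all 3 slides. SLC30A7, a zinc carrier of the Golgi, gave -0.23 (SE 0.19) and was 0.01 in the deposited values. SLC30A6 was at 0.02 (SE 0.20), with the opposite sign when all its probes were averaged. SLC30A2, singled out after its values were seen, measured 2.24 and 1.91 in controls 1 and 2, 1.02 and 0.79 in ischemia 1 and 2 and 2.89 in ischemia 3. Ischemia 3 was thus the highest array and the other ischemia kidneys the lowest, below control 3 as well (difference -0.18, SE 0.58).

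SLC11A2, the divalent metal and iron importer, measured -1.10, -1.69 and -1.92 in the controls and -0.85, -0.73 and -1.48 in ischemia. Ischemia was higher on each slide, by 0.38, 0.21 and 1.06, and the difference was 0.55 (SE 0.30, unadjusted p = 0.110). SLC41A2, a magnesium carrier, gave 0.10 (SE 0.25), with the opposite sign under normexp correction (-0.03). The probes of SLC11A1, the metal transporter of phagocyte vacuoles, disagreed by 1.43, the widest gap in any gene. Its brighter probe measured -0.04, 0.43 and 1.43 in the controls and 0.61, -0.22 and -0.06 in ischemia, a difference of -0.50 (SE 0.41). Its dimmer probe measured -3.65, -4.23 and -3.58 against -2.82, -2.91 and -2.94, with no overlap, a difference of 0.93 (SE 0.23, unadjusted p = 0.00466, adjusted p = 0.571), and was well above background on 2 control and 3 ischemia arrays. No direction can be given for SLC11A1.

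The widest differences lay among the carriers of other substrates, 13 of which were higher and 9 lower. With median centring 17 were higher and 5 lower, and in the deposited values 10 and 3 of the 13 present. The counts below the median of all probes were 8, 8 and 3 in these scalings. SLC16A9, a monocarboxylate family member that exports carnitine, measured 4.93, 5.28 and 4.74 in the controls and 3.64, 3.39 and 4.77 in ischemia. Ischemia 1 and 2 were more than 1 log2 unit below the lowest control, and ischemia 3 lay within the control range. The difference was -1.05 (SE 0.38, unadjusted p = 0.0264, adjusted p = 0.743), a 2.08-fold lower mean, and without single arrays it ran from -1.47 to -0.78. The second SLC16A9 probe, whose sequence is printed above, measured 0.73, 0.90 and 0.72 against -0.43, -0.47 and 0.48, without overlap, a difference of -0.92 (SE 0.29, unadjusted p = 0.0150). With the slide as a block the unadjusted p of the brighter probe was 0.00620 and the adjusted p 0.339.

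SLC15A2, the high-affinity peptide carrier of the proximal tubule, measured 0.75, 0.39 and -0.23 in the controls and -0.51, -0.82 and 0.03 in ischemia, a difference of -0.74 (SE 0.33, unadjusted p = 0.0607). SLC26A11, an anion exchanger, gave -0.55 (SE 0.29) and SLC27A3, of the fatty acid transport family, -0.42 (SE 0.27). All 3 had the lowest control in control 3. SLC15A1, the low-affinity peptide carrier, was dim and gave 0.64 (SE 0.41), or 0.04 with normexp correction.

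SLC27A2, the very long chain acyl-CoA synthetase and fatty acid carrier, was higher in every ischemia kidney than in any control, at 4.72, 4.68 and 5.01 against 4.52, 4.31 and 4.11. The difference was 0.49 (SE 0.21, unadjusted p = 0.0491, adjusted p = 0.791; unadjusted p with the slide as a block 0.0617), and its 3 probes gave 0.30 to 0.49. SLC35D1, a nucleotide sugar carrier of the endoplasmic reticulum, also did not overlap, at -0.63, -0.79 and -1.13 in ischemia against -1.47, -1.76 and -1.20 in controls. Its difference of 0.62 (SE 0.24, unadjusted p = 0.0327, adjusted p = 0.751) was nearly the same on each slide (0.67, 0.63 and 0.57), with a block p of 0.0175. A further SLC35D1 probe, named only in its description, gave 0.30 (SE 0.23). Together with SLC7A1 and SLC35B3 these were the 4 genes higher without overlap, 6.15% of the 65 against 5.88% of all probes.

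SLC35B3, a carrier of the sulfate donor PAPS and singled out after its values were seen, shows how far that count rests on the choice of probe. Its brightest probe measured -0.54, -0.49 and -0.60 in the controls and -0.42, -0.46 and -0.48 in ischemia, a difference of 0.09 (SE 0.17). Its other probes gave -0.38 (SE 0.18) and -0.41 (SE 0.21), both with every ischemia kidney below every control. A further probe that carries no SLC name but is described as this gene gave -1.09 (SE 0.38).

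SLC44A4, a choline-like transporter, had the highest mean difference and the highest SE of the 65 genes. It measured 5.89, 5.55 and 5.22 in the controls, 7.25 and 7.15 in ischemia 1 and 2, and 5.04 in ischemia 3. A difference of 0.93 (SE 0.58, unadjusted p = 0.153) therefore averaged a pair of kidneys far above the controls and 1 below them. In all 5 probes of SLC44A4 ischemia 1 and 2 were the highest arrays and ischemia 3 the lowest. SLC16A1, the lactate and pyruvate carrier MCT1 and the 1 measured gene of the hypoxia list, was highest in ischemia 3, at 0.61, 0.49 and 1.39 in controls and 1.61, 0.51 and 2.36 in ischemia (difference 0.66, SE 0.48), and its 7 probes gave 0.29 to 0.72. SLC16A3, the lactate exporter on the same list, was above background on 1 control array and no ischemia array. SLC26A6, an apical anion exchanger, gave 0.30 (SE 0.33), with -0.01 without control 3, and SLC4A2, a basolateral anion exchanger, 0.05 (SE 0.24).

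**Figure D4:**
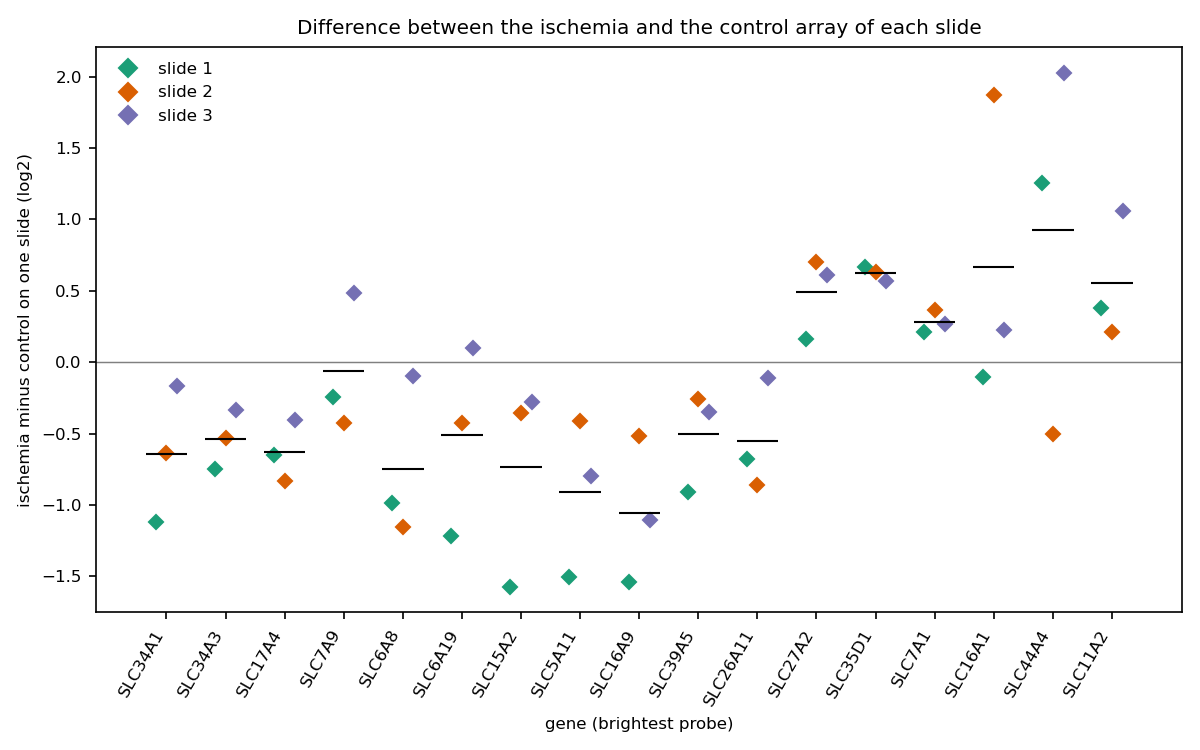
Difference between the ischemia and the control array of the same slide (log2) for 17 genes, coloured by slide, with the mean over slides as a black line. SLC34A1, SLC34A3, SLC17A4, SLC15A2, SLC5A11, SLC16A9 and SLC39A5 are among the genes below 0 on all 3 slides, SLC35D1 and SLC7A1 among those above 0 on all 3, and SLC44A4 runs from -0.51 on slide 2 to 2.03 on slide 3.

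On all 3 slides 16 of the 65 genes were lower (24.6%, against 16.6% of all probes) and 6 higher (9.23%, against 13.1%). The median within-slide difference was -0.10 on slide 1, -0.29 on slide 2 and 0.01 on slide 3, beside -0.01, -0.10 and 0.01 over all probes. With the slide as a block 6 genes were lower and 1 higher at an unadjusted p under 0.05 (9.23% and 1.54%, against 5.62% and 3.63% of all probes), and none was called after adjustment. The SD of the ischemia kidneys was over 3 times that of the controls for 11 genes, 16.9%, against 13% of all probes. Examples were SLC44A4 (1.25 against 0.33), SLC38A3 (0.74 against 0.15) and SLC2A8 (0.73 against 0.06). The reverse held for 7 of the 65 genes, SLC34A1, SLC7A9 and SLC6A19 among them, a share near that of all probes (11.3%).

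Over the 6 arrays, the genes with levels most like SLC34A1 were SLC15A2 (Pearson r 0.950), SLC34A3 (0.924) and SLC27A3 (0.923), where the median over the 64 other members was 0.20. Those most like SLC7A9 were SLC5A10 (0.954), SLC35A3 (0.942) and SLC27A3 (0.850), with a median of 0.32. These are descriptions over 6 arrays that share slides and scaling.

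By nephron segment, 11 of the 22 listed apical carriers of the proximal tubule were measured, of which 9 were lower, with a median of -0.26, and only SLC34A1 had an unadjusted p under 0.05. Of the 10 listed basolateral carriers 4 were measured and 3 were lower, with a median of -0.25. The 3 lower include SLC38A3 (-0.26), whose probes are described as SLC38A5 and may not read a listed carrier. Of the 16 listed carriers of the loop, distal tubule and collecting duct only SLC8A1, SLC9A2 and SLC4A2 were measured by gene name. The members therefore say little about these segments. Carriers named only in a probe's description were not counted in these lists. None of the 4 listed osmolyte carriers had a probe by name, and both measured carriers of the zinc response list, SLC30A1 and SLC39A14, are given above.

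Of the 34 listed partners and regulators of carriers 16 were measured, 7 higher and 9 lower, with a median of -0.05. ANPEP, the brush border aminopeptidase that binds SLC6A19, measured 6.74, 6.52 and 5.83 in the controls and 5.42, 5.65 and 5.84 in ischemia, a difference of -0.73 (SE 0.28, unadjusted p = 0.0357, adjusted p = 0.753), and was the only one under 0.05. HNF4A, a proximal tubule transcription factor, gave -0.51 (SE 0.34), PTH1R, the parathyroid hormone receptor, -0.46 (SE 0.31) and MT1A, a metallothionein, -0.52 (SE 0.43). PDZK1, a brush border scaffold, gave 0.14 (SE 0.21), WNK1, a kinase acting on chloride carriers, 0.10 (SE 0.30), and SLC9A3R2 0.16 (SE 0.24).

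Markers of the proximal tubule were measured beside its carriers. Of 8 listed markers 5 were measured, 2 of them SLC34A1 and SLC7A9 themselves, and all 5 were lower, 4 at an unadjusted p under 0.05, where 3.32% of all probes were, and none after adjustment. SLC7A9, the fifth, was above 0 in the deposited values (0.02) and after median centring (0.09). The others were GATM (-0.75, SE 0.30), MIOX (-0.81, SE 0.33) and ANPEP. The summed signal of the 5 ran from 331 to 505 in controls and from 244 to 272 in ischemia, in multiples of the array's 75th percentile. Taken singly, each of the 5 had groups that overlapped. Control 3 was the lowest control for SLC34A1, SLC7A9, MIOX and ANPEP but the highest array for GATM (7.09), so the gap between the sums leans on GATM. In whole cortex fewer cells of a type and less RNA per cell cannot be told apart. The macrophage marker CD163 measured 0.28, 0.37 and 0.47 in controls and 2.41, 1.77 and 1.18 in ischemia, a difference of 1.42 (SE 0.32, unadjusted p = 0.00270, adjusted p = 0.501), while CD14 gave -0.42, with a probe of opposite sign (0.34), and CD3E -0.03. The summed leukocyte markers ran from 2.26 to 2.66 in controls and from 3.00 to 6.34 in ischemia, with CD163 the only 1 of the 3 that was higher. COL1A2 gave -1.64 (SE 0.30, limma adjusted p = 0.385) on 1 dim probe. It measured -2.35, -1.78 and -1.43 in controls and -3.90, -3.24 and -3.35 in ischemia. MYLPF, a skeletal muscle light chain, gave -2.34 (SE 0.26, limma adjusted p = 0.134), although its probes ranged to -0.01. The 3 endothelial markers gave -0.03 to 0.20, and CLDN16, AQP2 and AQP3, of the loop and collecting duct, -0.27, -0.41 and -0.30. CALB1, of the distal tubule, gave 0.61 (SE 0.44), WT1, of the glomerulus, 0.69 (SE 0.36), and ACTA2, of smooth muscle, 0.28 (SE 0.22). No erythrocyte marker had a probe by name. The part of cell composition in the carrier differences was not tested.

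Of the 65 genes 39 had more than 1 measured probe. The sign was the same over all probes in 30 of them and differed in 9, and the median range between probes of a gene was 0.15. Only SLC11A1 ranged over more than 1. The identical probe pairs of SLC38A3 and SLC44A4 differed by at most 0.11 and 0.21 on any array. These pairs alone do not give the error within an array for other or dimmer probes.

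**Figure D5:**
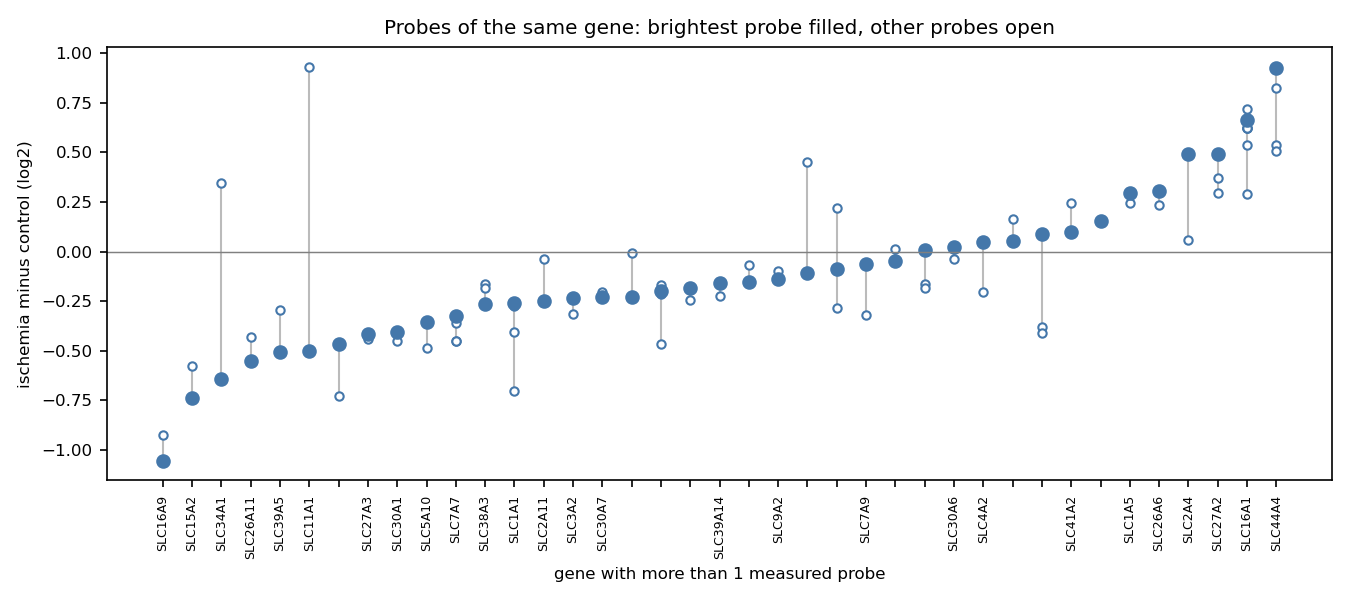
Difference between ischemia and control (log2) by probe for the 39 genes with more than 1 measured probe, some of them labelled; the filled point is the brightest probe, open points the others. Probes lie close together for SLC16A9 and SLC16A1 and far apart for SLC11A1 (-0.50 and 0.93) and SLC34A1 (-0.64 and 0.35).

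Unmeasured members numbered 18. Among them, SLC10A1, SLC18A1, SLC26A3, SLC26A5, SLC30A8, SLC34A2, SLC38A4, SLC6A14, SLC7A3, SLC8A3 and SLC24A4 had no array over background, and 6, SLC12A5, SLC16A3, SLC2A3, SLC23A2, SLC6A17 and SLC7A11, on 1 or 2.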

How the data were processed

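RNA of 3 control and 3 ischemia kidneys was hybridised to 1 array each. The deposited scanner files hold spot intensity that, per the file headers, Agilent Feature Extraction 10.10.1.1 had background-subtracted (11.5.1.1, limma and R 2.15.2 in the submitters' processing notes). A table of processed values on a log2 scale was also deposited. Its 19245 matched values per array followed the scanner values (Spearman 0.974 to 0.979), its column medians were 5.91 to 5.99, and its normalization and centring are not given in the sources used here, so it served as an alternative. Outlier spots were left out, replicate spots were averaged, and each array was scaled to its 75th percentile. The 25017 probes well above background on 3 or more arrays, with 5 or more values, were fitted in limma 3.58.1 (R 4.3.3, lmFit and eBayes, two-sided, Benjamini-Hochberg over all probes). The fit was run on simulated arrays with independent noise and no slide effect, so that run cannot speak to effects of the slides. No exact permutation test was used, since 0.1 is the smallest p that 3 against 3 allows. Slides were taken from the slide number of each scanner file. Deviations of same-slide arrays from their group means had correlations of 0.342, 0.102 and 0.334, and those of same-numbered samples -0.348, -0.168 and -0.050. Deviations from a mean of 3 arrays are tied to each other, so these correlations cannot settle whether the numbers pair kidneys. The numbers were not taken as pairs, and each kidney came from a different pig. Named genes are the markers, up to 4 per direction of smallest unadjusted p in each of 5 classes, up to 3 per direction in segment and stress lists, and up to 4 per direction among partners, plus those said to be chosen later. Members and lists were chosen with earlier results of these data known. All 65 gene names are symbols of the RefSeq Sscrofa11.1 gene table. No genome coordinates are given, since the array's build is not stated. Results for a few genes are not reported here.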

Additional observations from a re-analysis of the deposited data

How the results depend on the processing

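The count of genes called after adjustment was 0 under every alternative but array weights, which called 5 (SLC16A9, SLC34A1, SLC35D1, SLC5A11 and SLC6A8) and 870 of all probes. That weighting stopped before it converged and gave control 2 a weight of 390 against 0.205 to 0.461 for the others, so its control arm was nearly 1 array. The count higher at an unadjusted p under 0.05, 2 in the main values, was 11 with array weights, 4 in the deposited values, 1 with median centring, quantile normalization, no filter on dim probes, probe means per gene or the slide as a block, and 0 with the replicate block. The count lower, 5 in the main values, was 12 with array weights, 0 in the deposited values and 1 with median centring. It was 2 with no filter, 3 with probe means and 1 with the replicate block, which uses sample numbers that were not taken as pairs. Leaving out 1 array gave 0 to 5 genes higher, 1 to 10 lower, 0 called, and a median difference of -0.165 to -0.044. The median difference, -0.112, was 0.097 in the deposited values (61 genes by their brightest deposited probe, or 0.107 over the 46 brightest probes present) and 0.038 with median centring. The cause of these moves was not tested, except that median centring moves all probes alike. Leaving out probes with the shared run of 16 bases, chosen after seeing the data, gave a median of -0.106 and changed no count. Normexp correction, outlier spots kept, a variance trend and the filter on all 6 arrays kept each count within 1.5 times. Precision is limited by 3 arrays a group and, for SLC15A1, SLC24A2 and the second probes of SLC34A1 and SLC11A1, by signal near background.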

Other observations

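Carriers that the array names only in a probe's description add to the picture, and were looked at after the member results were seen. By family and member number, 78 probes of 62 genes outside the excluded families carry no SLC gene name. Of the genes with no member probe, 36 were measured, and 28 of them were lower in ischemia (77.8%, against 55.8% of all probes). Their median difference was -0.16, beside -0.04 over all probes. With median centring 20 were lower, and in the deposited values 10 of 33. Their medians were then -0.01 and 0.07, beside 0.11 and 0.14 over all probes. At an unadjusted limma p under 0.05, 4 were lower and none higher, 11.1% against 6.3% of all probes, and none passed adjustment (smallest adjusted p 0.577). In 5 genes every ischemia kidney was below every control, 13.9% against 5.03% of all probes.

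SLC17A3, a urate and phosphate family carrier of the proximal tubule, measured 0.95, -0.26 and -0.40 in controls and -1.09, -0.99 and -1.23 in ischemia (difference -1.20, SE 0.37, unadjusted p = 0.0133). SLC46A2, of the folate transporter family, measured -0.89, -1.04 and -1.11 against -2.08, -2.08 and -1.54 (difference -0.89, SE 0.22, unadjusted p = 0.00512). SLC16A4, an orphan of the monocarboxylate family, measured 2.38, 2.07 and 1.16 against -0.09, -0.43 and 1.66 (difference -1.49, SE 0.58, unadjusted p = 0.0360). As with its relative SLC16A9, ischemia 1 and 2 were below all controls and ischemia 3 within their range. SLC24A6, described as a sodium calcium exchanger, gave -0.53 (SE 0.21). These differences kept their sign under median centring, quantile normalization, normexp correction and, for the 3 genes present, in the deposited values.

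SLC7A13, described on a pair of probes, was low in control 3 alone: 5.62, 5.18 and 3.05 in controls and 4.38, 5.12 and 4.63 in ischemia. Control 3 was also the lowest control for SLC34A1, SLC6A8, SLC6A19, SLC5A10 and SLC7A9. It was the highest control for SLC39A14, SLC2A11, SLC11A1 and SLC16A1, and how often it was lowest over all genes was not counted. Leaving it out raised the count of member genes lower at a limma unadjusted p under 0.05 from 5 to 10. Leaving out any other single array lowered that count, as given above.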
